A study of Sus scrofa with 4 samples.

Results

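The members are 10 genes of the canonical WNT pathway, listed by name when earlier results of these data were known. They include the DNA-binding factors TCF7, TCF7L1, TCF7L2 and LEF1 and their coactivator CTNNB1 (beta-catenin). The others are the scaffolds AXIN1 and AXIN2 and the feedback inhibitors NKD1, RNF43 and ZNRF3. Each of the 10 is a row of the deposited expression tables, which hold 26921 genes or loci, and all 10 passed the filter on low counts. The 4 libraries came from cultured pig cells that the labels call immature spermatogonia of the testis: 2 of cells with knockdown of ZBTB16 and 2 of control cells, whose genotype is given as WT. The study's design plans a short hairpin RNA delivered by lentivirus, and the labels do not say whether control cells received a vector, so an effect of the virus and one of the knockdown cannot be told apart. Neither strain nor age of the donor animals is given for these libraries.

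In the canonical pathway, WNT ligands bind Frizzled and LRP receptors and stop a complex of AXIN, APC and GSK3 from marking beta-catenin for degradation. Beta-catenin then joins TCF/LEF proteins on DNA, which otherwise act with TLE corepressors. AXIN2, NKD1, RNF43 and ZNRF3 are induced by the pathway in many tissues and damp it in turn, and so serve as readouts of its activity. In the mouse testis, WNT signals from somatic cells reach spermatogonia and Sertoli cells.

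Promoter windows of 300 bases, from 250 before to 50 after the first base of each RefSeq gene (Sscrofa11.1), were searched on both strands for CTTTGAT, a core to which TCF/LEF proteins bind, and for its shorter form CTTTGA, which every CTTTGAT contains. CTTTGAT lay in the windows of 4 of the 10 genes, TCF7, LEF1, AXIN2 and NKD1, and in 2.48% of 20653 windows of protein-coding genes. These 4 windows are shown because they hold the letters read by the factors described here. They are written 5′ to 3′ on the gene's strand, with CTTTGAT and CTTTGA on either strand in capitals. The leftmost base of the match as printed lay 3 bases before the gene start in TCF7, 16 in AXIN2 and 29 in NKD1. In LEF1, where the motif is on the other strand, it lay 238 bases before. LEF1 also held CTTTGA once more, a form found in 12.5% of all windows. A match is a description of letters and not a measured binding site. Windows were placed by the annotated gene start, and whether transcription starts there in these cells was not tested. GC content and CpG sites were below the medians over all windows (58% and 15) in TCF7L1 (53% and 8), LEF1 (48.3% and 8), CTNNB1 (43.7% and 9) and RNF43 (36.7% and 2). The other members were above both medians. A match, or its absence, may thus not describe a promoter.
TCF7 (chr2:136422490-136422789, plus strand): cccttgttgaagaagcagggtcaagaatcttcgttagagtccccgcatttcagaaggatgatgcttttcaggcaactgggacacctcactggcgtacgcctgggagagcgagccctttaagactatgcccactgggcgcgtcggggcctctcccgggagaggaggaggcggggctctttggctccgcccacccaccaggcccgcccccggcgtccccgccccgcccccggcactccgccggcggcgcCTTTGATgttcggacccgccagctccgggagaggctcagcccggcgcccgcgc
LEF1 (chr8:113824261-113824560, plus strand): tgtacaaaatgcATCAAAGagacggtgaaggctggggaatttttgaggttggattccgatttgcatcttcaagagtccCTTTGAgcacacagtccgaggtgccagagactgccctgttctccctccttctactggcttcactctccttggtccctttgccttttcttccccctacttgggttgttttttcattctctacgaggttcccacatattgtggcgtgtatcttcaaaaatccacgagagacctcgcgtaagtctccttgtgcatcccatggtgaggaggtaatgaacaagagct
AXIN2 (chr12:12343158-12343457, minus strand): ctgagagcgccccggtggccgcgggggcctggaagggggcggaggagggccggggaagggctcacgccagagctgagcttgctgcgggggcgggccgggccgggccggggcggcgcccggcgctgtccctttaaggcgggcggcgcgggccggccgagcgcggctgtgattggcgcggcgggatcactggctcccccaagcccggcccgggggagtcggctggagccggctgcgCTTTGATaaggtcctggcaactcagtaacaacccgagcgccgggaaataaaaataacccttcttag
NKD1 (chr6:34319535-34319834, minus strand): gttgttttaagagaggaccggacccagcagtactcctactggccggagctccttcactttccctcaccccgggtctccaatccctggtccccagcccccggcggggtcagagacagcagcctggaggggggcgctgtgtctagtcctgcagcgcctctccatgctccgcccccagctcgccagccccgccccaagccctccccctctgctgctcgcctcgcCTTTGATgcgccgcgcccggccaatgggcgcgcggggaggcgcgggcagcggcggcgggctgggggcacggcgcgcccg

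The libraries held 16548342 to 18500447 expected counts in the knockdown and 15983390 to 17283536 in the control. ZBTB16, the targeted gene, was at 1.37 and 1.34 FPKM in the knockdown, against 1.77 and 1.76 FPKM in the control, where FPKM counts fragments scaled by transcript length and library size. Its fitted level fell to 0.779 times control (log2 -0.36, adjusted p = 0.00338, edgeR), a call that DESeq2 did not make (adjusted p = 0.109). Sequenced fragments averaged 266.4 and 267.3 bases in the knockdown, against 325.7 and 326.7 bases in the control, so that fragment length and group cannot be told apart. Markers of somatic cells were abundant: the 10 Sertoli markers summed to 2868 to 2896 FPKM in the knockdown and 2710 to 2739 in the control, and the 7 peritubular markers to 6188 to 6303 in the knockdown and 6521 to 6587 in the control. FPKM summed over all genes was itself lower in the knockdown, at 634962 and 632881, against 739808 and 742383 in the control, so sums of FPKM and fitted changes can differ in direction. By the fit 5 of the 7 peritubular markers rose and 2 (TAGLN and TPM2) fell, against 22.7% and 23.8% of all genes tested. After a trend of log2 change on transcript length was subtracted 6 rose and 0 fell, against 20.8% and 20.3%. The 12 germ cell markers summed to 115 to 120 FPKM in the knockdown and 154 to 155 in the control, mostly from UCHL1, with 89.1 and 85.3 FPKM in the knockdown against 122 and 120 FPKM in the control. DDX4, a defining germ cell gene, averaged 1.94 ± 0.106 FPKM in the knockdown and 2.13 ± 0.240 FPKM in the control (SD, n = 2 each). The Sertoli and peritubular sums thus stood far above the germ cell sum, although the label names a germ cell. Single genes carried much of them. CLU averaged 1909 FPKM in the knockdown and 1935 in the control, and ACTA2 3474 and 3204. Sums of macrophage, T lymphocyte and endothelial markers lay below the germ cell sum. Sums over different genes do not measure the share of each cell type. Fewer cells of a type and less RNA per cell cannot be told apart in such samples. The Leydig markers summed to 202.5 to 213 FPKM in the knockdown and 237 to 242 FPKM in the control. For fibroblasts the sums were 2546 to 2559 FPKM in the knockdown and 2756 to 2763 FPKM in the control. For macrophages they were 25.4 to 28.1 and 36.5 to 40.1 FPKM, in the same order. T lymphocyte markers came to 10.5 to 11.1 and 9.41 to 11.4 FPKM, and endothelial markers to 10 to 10.9 and 11.6 to 13.2 FPKM. No marker was at 0 in all libraries. By the fit 1 of 7 fibroblast markers rose and 5 fell, and 1 of 7 tested macrophage markers rose and 3 fell. Of 6 tested Leydig markers 0 rose and 1 fell, and of 5 tested endothelial markers 0 rose and 1 fell. Over all genes tested 22.7% were called higher and 23.8% lower.

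All 4 TCF/LEF genes rose in the ZBTB16 knockdown, CTNNB1 and AXIN1 fell slightly, and the feedback genes AXIN2, NKD1, RNF43 and ZNRF3 did not pass the test. A gene was called at an adjusted p under 0.05, with Benjamini-Hochberg adjustment over all 15763 genes tested. Among the 10 genes 4 were called higher, against 22.7% of all genes tested, and 2 were called lower, against 23.8%; in either direction 46.4% of all genes were called. By FPKM alone, the 4 TCF/LEF genes and ZNRF3 were higher in both knockdown libraries than in both controls, as were 29.0% of all genes tested. CTNNB1, AXIN1 and AXIN2 were lower in both, as were 41.4%. FPKM summed over all genes was also lower in the knockdown, at 634962 and 632881, against 739808 and 742383 in the control. Falls in FPKM thus depend on that scale, while the calls are from fitted counts. The median log2 change of the 10 genes was 0.19, against 0.00 over all genes tested. Their median transcript length was 4173 bases, against 3077 over all genes tested. After a trend of log2 change on transcript length was subtracted their median change was 0.09, against 0.00. After subtracting trends of both length and GC content it was 0.13, against 0.01. The 10 genes were listed with earlier results of these data known, so these shares are a description and not a test.

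**Figure D1:**
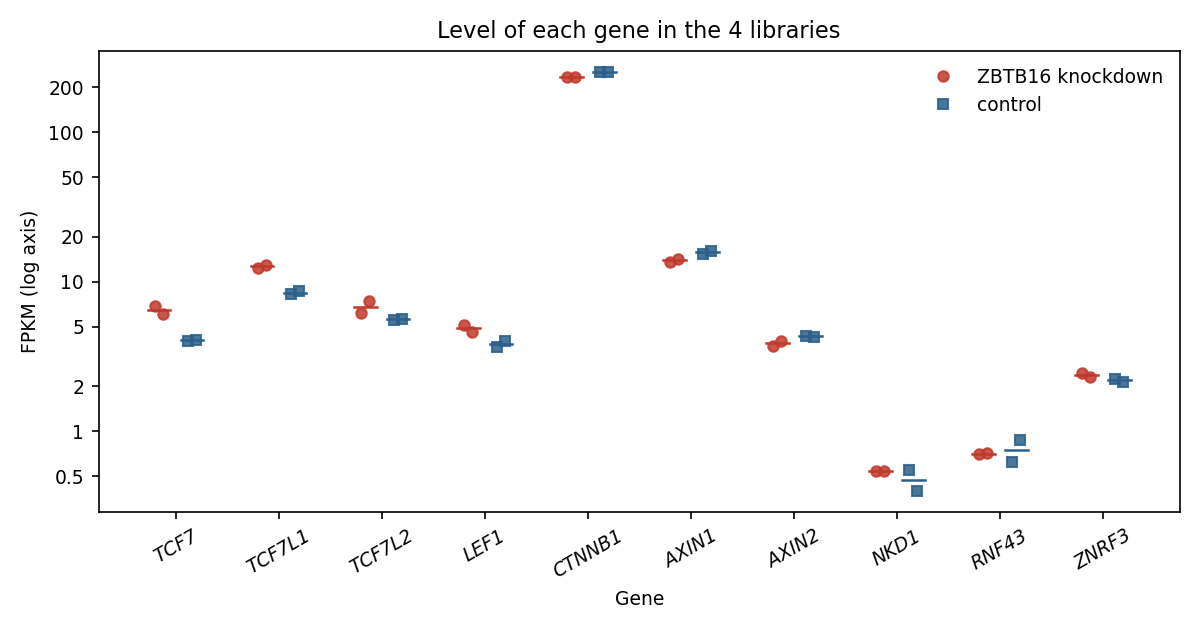
FPKM (log axis) of the 10 genes in each library, with 2 ZBTB16 knockdown libraries (circles) left of 2 control libraries (squares) and a line at each mean. The 4 TCF/LEF genes lie higher in both knockdown libraries, while NKD1 and RNF43 overlap between the groups.

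TCF7, the factor best known from T lymphocytes, showed the largest rise among the 10. It is on chromosome 2 (136422740 to 136456323, Sscrofa11.1) and had 6.89 and 6.08 FPKM in the knockdown, against 4.02 and 4.09 FPKM in the control, from 482 and 381 counts against 259 and 244. Both knockdown libraries stood above both controls. The fitted counts rose 1.65-fold (95% interval 1.47 to 1.85, log2 0.72, SE 0.0842, adjusted p = 1.11e-13, edgeR). Of 6 T lymphocyte markers tested, 1 rose and 0 fell, against 22.7% and 23.8% of all genes tested. Of the 9 listed, 6 were below 1 FPKM in all libraries, so the list could show little. A change in T lymphocytes was not tested. CD3E, a subunit of the T cell receptor complex, had 0.73 and 0.69 FPKM in the knockdown and 0.64 and 0.69 FPKM in the control. CD2, an adhesion receptor of T and NK cells, was the marker that rose, at 0.93 and 1.12 FPKM in the knockdown and 0.33 and 0.27 FPKM in the control (13 and 14 against 4 and 3 counts). DESeq2 called 0 of the 6.

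TCF7L1, a family member that acts mainly as a repressor, had the highest FPKM of the 4. It lies on chromosome 3 (59438152 to 59458988) and had 12.4 and 13.0 FPKM in the knockdown, against 8.28 and 8.65 FPKM in the control, with no overlap. It rose 1.51-fold (95% interval 1.36 to 1.68, log2 0.60, SE 0.0795, adjusted p = 4.29e-11, edgeR). The deposited annotation gives its pig protein as a low-quality model, so the length behind its FPKM is uncertain.

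TCF7L2, a widely expressed factor with roles in gut and metabolism, had 6.15 and 7.45 FPKM in the knockdown, against 5.57 and 5.66 FPKM in the control (chromosome 14, 123343695 to 123547332). The groups did not overlap, but the knockdown libraries differed more from each other than the controls did. Its counts rose 1.24-fold (95% interval 1.12 to 1.38, adjusted p = 3.15e-04, edgeR), the smallest rise of the family. Without knockdown replicate 2 the log2 change was 0.18 instead of 0.31 and the call was lost (adjusted p = 0.116), as it was with limma on log2(FPKM + 1) (adjusted p = 0.0979).

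LEF1, which acts mainly as an activator with beta-catenin, had 5.13 and 4.64 FPKM in the knockdown, against 3.65 and 4.04 FPKM in the control (chromosome 8, 113824511 to 113944078). The knockdown libraries were again the higher pair. The fitted rise was 1.33-fold (95% interval 1.15 to 1.55, adjusted p = 8.48e-04, edgeR), from 157 to 250 counts a library. The call was lost without control replicate 1 (log2 0.31, adjusted p = 0.0618) and with DESeq2 (adjusted p = 0.0682).

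Summed over the 4 genes, TCF/LEF transcripts came to 30.6 and 31.1 FPKM in the knockdown, against 21.5 and 22.4 FPKM in the control. TCF7L1 made up 40.5% and 41.6% of that sum in the knockdown and 38.5% in each control library. The share of TCF7 was 22.5% and 19.5% in the knockdown and 18.7% and 18.2% in the control, while that of TCF7L2 was 20.1% and 23.9% against 25.9% and 25.2%. LEF1 held 16.8% and 14.9% in the knockdown, against 17.0% and 18.0% in the control. In the control the order of levels by FPKM was TCF7L1, TCF7L2, then TCF7 and LEF1, whose values lay close together, 4.02 and 4.09 FPKM against 3.65 and 4.04. In the knockdown TCF7 and TCF7L2 overlapped below TCF7L1, and LEF1 was the lowest. These orders and shares rest on transcript length, which is uncertain for TCF7L1. By expected counts TCF7L1 had 298 and 284 in the control, below TCF7L2 at 363 and 345. In the knockdown their counts overlapped, at 472 and 443 for TCF7L1 and 440 and 474 for TCF7L2.

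**Figure D2:**
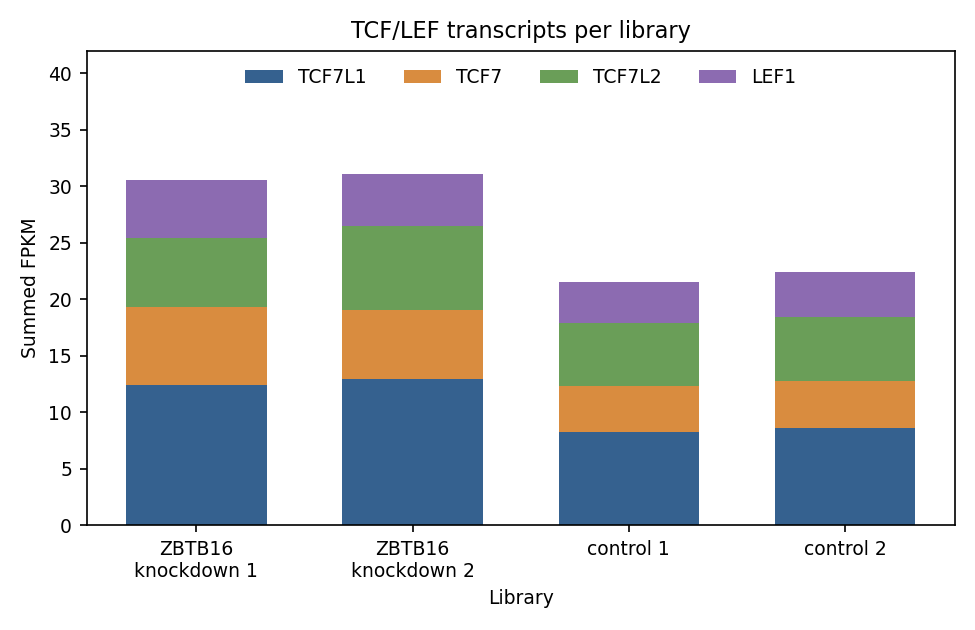
Summed FPKM of TCF7L1, TCF7, TCF7L2 and LEF1 (stacked, from the bottom) in the 2 ZBTB16 knockdown and the 2 control libraries. The stacks reach 30.6 and 31.1 FPKM in the knockdown and 21.5 and 22.4 FPKM in the control.

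CTNNB1, which joins TCF/LEF proteins in the nucleus and cadherins at the membrane, was by far the most abundant of the 10. On chromosome 13 (25163550 to 25208314), it had 236 and 234 FPKM in the knockdown, against 252 and 254 FPKM in the control. The groups did not overlap, and the fall was small, to 0.932 times control (95% interval 0.907 to 0.957, adjusted p = 3.13e-06, edgeR). The ratio of CTNNB1 to summed TCF/LEF FPKM was 7.73 and 7.52 in the knockdown, against 11.7 and 11.3 in the control.

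AXIN1, the constitutive scaffold of the destruction complex, had 13.6 and 14.2 FPKM in the knockdown, against 15.3 and 16.1 FPKM in the control (chromosome 3, 41344908 to 41393999). It was lower in both knockdown libraries and fell to 0.830 times control by counts (95% interval 0.775 to 0.889, log2 -0.27, adjusted p = 1.46e-06, edgeR). When the effective transcript length of each library entered the fit, the log2 change was -0.16 (adjusted p = 0.0113). With limma on log2(FPKM + 1) it was -0.17 (adjusted p = 0.0426), and without the filter on low values the call was lost (adjusted p = 0.0853). The deposited transcript length, which RSEM averages over a gene's transcripts, was 4080 and 4010 bases for AXIN1 in the knockdown, against 4394 and 4416 bases in the control, a difference of -8.17%. That lies beyond the fifth percentile of -7.62% over 11025 tested genes whose length varied between libraries. Of the 9 members with varying length 6 were shorter in both knockdown libraries (TCF7, TCF7L1, CTNNB1, AXIN1, AXIN2 and ZNRF3), against 30.6% of genes with varying length. None of the 9 was longer in both, against 19.6%. Which transcripts differed cannot be read from tables by gene.

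AXIN2, the scaffold induced by beta-catenin and TCF, had 3.70 and 4.03 FPKM in the knockdown, against 4.35 and 4.28 FPKM in the control (chromosome 12, 12311293 to 12343207). Its FPKM was lower in both knockdown libraries, but the difference did not pass: the fitted level was 0.904 times control with a 95% interval of 0.797 to 1.02 (adjusted p = 0.192, edgeR). The interval lies below the rise fitted for each of the 4 TCF/LEF genes. Across the 14 alternatives its adjusted p ranged from 0.0568, after a trend of log2 change on transcript length was subtracted, to 0.625, without knockdown replicate 1. The first 2925 bases of the gene overlap the span of CEP112 on the same strand. Expected counts were whole numbers for AXIN2 (268 and 265 in the knockdown, 296 and 271 in the control). They were also whole for CEP112 (210 and 187 in the knockdown, 181 and 144 in the control). No sharing of reads between AXIN2 and CEP112 thus shows. CEP112 stood at 3.67 and 3.74 FPKM in the knockdown and 3.39 and 2.93 FPKM in the control (adjusted p = 0.0859).

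The remaining feedback genes were low. ZNRF3, an E3 ligase that removes Frizzled receptors from the cell surface, had 2.46 and 2.29 FPKM in the knockdown, against 2.25 and 2.13 FPKM in the control (chromosome 14, 46092000 to 46241327). Its knockdown values stood just above the controls, with a fold of 1.10 (95% interval 0.956 to 1.26, adjusted p = 0.288, edgeR). RNF43, its paralogue with the same action, had 0.70 and 0.71 FPKM in the knockdown, against 0.62 and 0.87 FPKM in the control (chromosome 12, 34631574 to 34695021). The knockdown values lay between the control values, and the fold was 0.976 (95% interval 0.746 to 1.28, adjusted p = 0.907).

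NKD1, which binds Dishevelled and dampens its relay, had 0.54 FPKM in each knockdown library, against 0.55 and 0.40 FPKM in the control (chromosome 6, 34223888 to 34319584). The groups overlapped, and the fold of 1.19 had a 95% interval of 0.851 to 1.66 (adjusted p = 0.429, edgeR) from 28 to 47 counts a library. At these depths a change of the size seen in TCF7L2 lies inside the intervals of NKD1, RNF43 and ZNRF3. Leaving out control replicate 2 gave RNF43 a log2 change of 0.22 and NKD1 one of 0.01, and leaving out control replicate 1 gave -0.27 and 0.55, with no call for either.

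**Figure D3:**
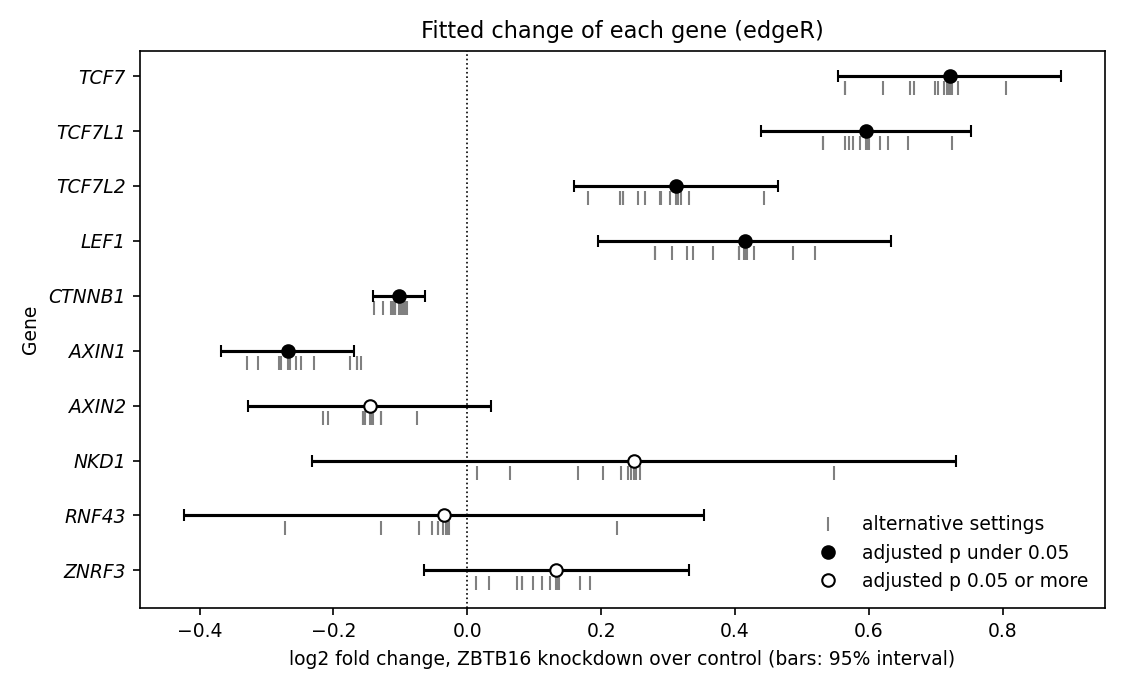
Fitted log2 fold change of ZBTB16 knockdown over control with its 95% interval for the 10 genes (filled: adjusted p under 0.05), with the value under each alternative setting as a grey tick. The ticks of the TCF/LEF genes all lie above 0, those of CTNNB1, AXIN1 and AXIN2 below 0, and those of RNF43 on both sides.

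By a fixed measure of likeness, the distance between log2 CPM profiles centred on each gene over the 4 libraries, the genes closest to TCF7 among 11625 were MEOX2, WIPF3 and DRD2 (distances 0.0426, 0.0744 and 0.0770). WIPF3 had 8.34 and 7.87 FPKM in the knockdown, against 4.91 and 4.99 in the control. MEOX2 was low, at 1.08 and 0.93 FPKM against 0.59 and 0.64, and was not called (adjusted p = 0.175, edgeR). DRD2 was low too, at 1.49 and 1.21 FPKM against 0.86 and 0.84 (adjusted p = 0.00492, edgeR). Closest to AXIN2 were IFI44L, LACTB and NR4A3 (0.0158, 0.0196 and 0.0207). Unlike AXIN2, IFI44L was called lower (adjusted p = 3.94e-04, edgeR), while LACTB and NR4A3 were not called (0.179 and 0.128). Over 4 libraries in 2 groups this is a description only.

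The rest of the pathway was read from lists by role, holding 114 genes with a row in the tables. Of 92 that were tested 41 rose, 8 fell and 43 did not pass, with a median log2 change of 0.13 against 0.00 over all genes tested. These counts, and those of each list, stand beside 22.7% of all genes tested called higher and 23.8% called lower. The lists too were drawn up with earlier results of these data known, so the shares are a description and not a test. Transcripts of these lists had a median length of 4029 bases, against 3077 over all genes tested. After subtracting the length trend 31 rose and 12 fell, against 20.8% and 20.3% of all genes, and after subtracting trends of both length and GC content 33 rose and 13 fell, against 20.7% and 19.5%.

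Among WNT ligands 9 of 19 were tested: 1 rose and 2 fell. WNT5A, which signals mainly without beta-catenin, had 6.09 and 5.95 FPKM in the knockdown, against 5.43 and 5.51 FPKM in the control (log2 0.18, adjusted p = 0.0145, edgeR). That call was lost with DESeq2 (adjusted p = 0.183), with limma on log2(FPKM + 1) (0.132), after subtracting the length trend (log2 0.07, adjusted p = 0.404) and without knockdown replicate 1, control replicate 1 or control replicate 2 (0.127, 0.0728 and 0.0608). WNT9A and WNT11, named after their values were seen, fell at levels under 1 FPKM. WNT11 had 9 and 7 counts in the knockdown and 19 and 16 in the control, and its call was lost without any 1 of the 4 libraries (adjusted p 0.0768 to 0.149). WNT9A had 0.27 and 0.53 FPKM in the knockdown, against 0.63 and 0.85 in the control. Its call was lost without knockdown replicate 1 (log2 -0.44, adjusted p = 0.281), without control replicate 2 (-0.64, 0.142), with DESeq2 (0.137) and with limma on all genes. The secretion genes PORCN and WLS did not pass (adjusted p = 0.139 and 0.689).

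Of 14 tested receptors 7 rose and 1 fell. With DESeq2, which called 2168 of 15763 genes higher and 2284 lower, 3 rose and 1 fell. Without both trends 5 rose and 2 fell. FZD1, a Frizzled receptor, had 9.07 and 8.85 FPKM in the knockdown, against 11.9 and 11.6 FPKM in the control, and was the 1 receptor that fell (log2 -0.37, adjusted p = 1.09e-14, edgeR; -0.57 without the 2 trends). RYK, a receptor of the tyrosine kinase family for WNT ligands, had 76.3 and 75.4 FPKM in the knockdown, against 60.5 and 63.7 FPKM in the control (log2 0.28, adjusted p = 3.84e-18; 0.17 without them). LRP5, a coreceptor of Frizzled, had 13.6 and 14.1 FPKM in the knockdown, against 12.1 and 11.6 FPKM in the control (log2 0.26, adjusted p = 2.99e-06; 0.17 without the length trend). Of 4 tested R-spondin and LGR genes, LGR4 alone was called. LGR4, a receptor for R-spondins, had 8.77 and 8.29 FPKM in the knockdown, against 7.36 and 7.11 FPKM in the control (log2 0.28, adjusted p = 2.87e-05). Without both trends it was at 0.14 (adjusted p = 0.0480), and with limma on all genes its adjusted p was 0.0726.

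Of 10 tested secreted and surface inhibitors 2 rose and 2 fell, near the shares over all genes. DKK3, the most abundant at 304 and 297 FPKM in the knockdown against 331 and 325 FPKM in the control, fell by counts (log2 -0.09, adjusted p = 9.87e-05, edgeR). It lost its call without the length trend (adjusted p = 0.0636) and stood at 0.01 without both trends. SFRP2, a decoy that binds WNT ligands, had 82.6 and 82.0 FPKM in the knockdown, against 79.3 and 77.6 FPKM in the control (log2 0.14, adjusted p = 4.22e-04). Its change was 0.30 without both trends and was not called with limma on log2(FPKM + 1) (0.07, adjusted p = 0.107). FRZB, a related decoy, rose to 2.16 and 2.42 FPKM in the knockdown, against 1.55 and 1.42 FPKM in the control (log2 0.58, adjusted p = 0.00601). The FRZB call was lost without knockdown replicate 2 (adjusted p = 0.0531), without control replicate 2 (0.0784), with DESeq2 (0.126) and with limma on all genes (0.0518). SFRP1 had 5.63 and 5.52 FPKM in the knockdown, against 6.82 and 6.15 in the control, a fall that was lost with DESeq2 (adjusted p = 0.301), with limma on log2(FPKM + 1) (0.0749) and without control replicate 1 (log2 -0.10, adjusted p = 0.427), knockdown replicate 1 (0.0945) or knockdown replicate 2 (0.159).

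In the cytoplasmic relay and destruction complex 10 of 20 tested genes rose and 2 fell. Without the length trend 6 rose and 3 fell, and without both trends 7 rose and 5 fell, with a median log2 change of 0.03 instead of 0.11. APC, the scaffold that works with AXIN, had 17.3 and 18.2 FPKM in the knockdown, against 11.9 and 12.0 FPKM in the control (log2 0.53, adjusted p = 4.05e-32, edgeR; 0.30 without both trends). APC thus moved up while AXIN1, in the same complex, moved down. GSK3B, the kinase that marks beta-catenin, had 65.3 and 65.7 FPKM in the knockdown, against 56.3 and 55.7 FPKM in the control (log2 0.33, adjusted p = 9.76e-21; 0.22 with limma on log2(FPKM + 1)). DVL3, a Dishevelled relay protein, had 62.1 and 61.0 FPKM in the knockdown, against 54.6 and 55.2 FPKM in the control. Its rise was 0.50 on the log2 scale by counts (adjusted p = 1.06e-30) and 0.18 when effective length entered the fit. Its paralogue DVL1 fell (log2 -0.22, adjusted p = 7.20e-05; -0.14 without both trends or without knockdown replicate 2), as did the ligase RNF146, which helps remove AXIN (log2 -0.18, adjusted p = 4.82e-05). RNF146 lost its call without the length trend (log2 -0.06, adjusted p = 0.196), and DVL1 with limma on all genes (0.0762).

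Of 17 tested nuclear cofactors 12 rose, 0 fell and 5 did not pass, against 22.7% higher and 23.8% lower over all genes, with a median log2 change of 0.22. Without the length trend 9 rose and 1 fell, and without both trends 9 rose and 0 fell, against 20.7% and 19.5% of all genes, with a median of 0.14. Their median transcript length was 5405 bases, against 3077 over all genes tested. The list mixes coactivators with corepressors. Of its TLE corepressors, TLE4 rose (log2 0.42, adjusted p = 2.71e-13, edgeR), while TLE2 and TLE3 did not pass (adjusted p = 0.813 and 0.252). EP300, a histone acetyltransferase that works with beta-catenin, had 24.99 and 25.03 FPKM in the knockdown, against 17.4 and 16.9 FPKM in the control (log2 0.57, adjusted p = 4.73e-41, edgeR). CREBBP, its paralogue, had 22.9 and 23.1 FPKM in the knockdown, against 15.7 and 15.8 FPKM in the control (log2 0.57, adjusted p = 3.13e-37). Without the length trend the log2 changes of EP300 and CREBBP were 0.40 and 0.41. BCL9L, which links beta-catenin to PYGO proteins, had 13.5 and 14.3 FPKM in the knockdown, against 10.02 and 10.43 FPKM in the control (log2 0.42, adjusted p = 3.94e-17; 0.28 without the length trend).

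Of 8 other tested target genes 4 rose and 1 fell, and without both trends 6 rose and 1 fell. FOSL1, an AP-1 subunit, had 58.4 and 55.0 FPKM in the knockdown, against 43.9 and 41.7 FPKM in the control (log2 0.48, adjusted p = 1.85e-18, edgeR). MYC rose by 0.22 on the log2 scale (36.6 and 37.3 FPKM in the knockdown, 33.9 and 32.5 in the control, adjusted p = 1.67e-05; 0.0526 with limma on all genes), and CD44, a hyaluronan receptor, also by 0.22 (adjusted p = 2.31e-11; 0.13 without both trends). CCND1, a D-type cyclin and a classical target, fell, with 7.81 and 7.95 FPKM in the knockdown, against 9.52 and 9.73 FPKM in the control (log2 -0.25, adjusted p = 3.89e-04). These genes respond to many pathways besides WNT.

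Of 8 tested cadherin and catenin partners 4 rose and 0 fell, but without both trends 3 rose and 3 fell. JUP (plakoglobin), the paralogue of beta-catenin at cell junctions, had 77.5 and 74.8 FPKM in the knockdown, against 52.1 and 51.5 FPKM in the control (log2 0.51, adjusted p = 6.54e-37, edgeR), while CTNNB1 fell. CDH2 (N-cadherin), a cadherin of Sertoli and germ cells, had 51.1 and 52.0 FPKM in the knockdown, against 42.1 and 42.7 FPKM in the control (log2 0.32, adjusted p = 6.97e-20). CTNND1 (p120 catenin) rose by counts (log2 0.21, adjusted p = 6.89e-14), stood at -0.04 without the length trend (adjusted p = 0.225) and was called lower without both trends (-0.08, adjusted p = 0.00244).

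**Figure D4:**
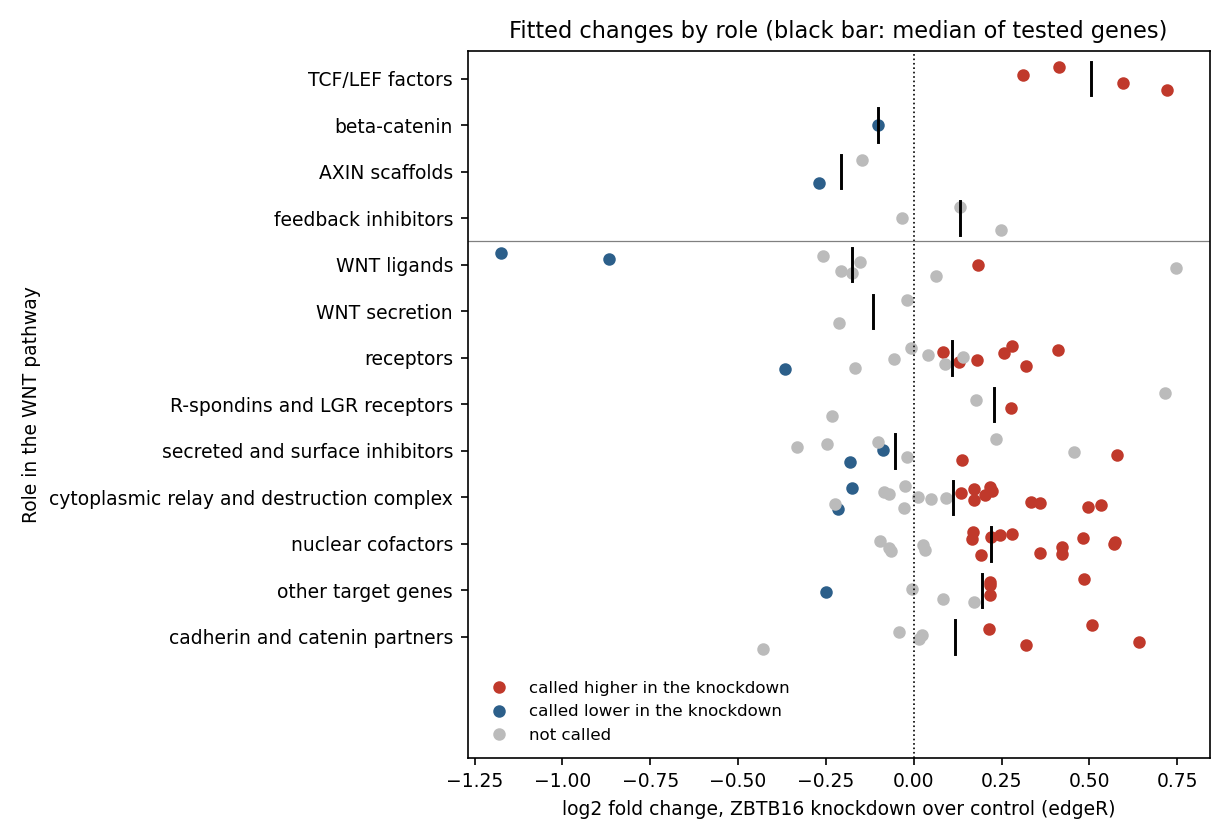
Fitted log2 fold change of ZBTB16 knockdown over control for each tested gene by role, the 10 genes above the grey line and the other pathway lists below it, with called genes in colour and a black bar at each median. The 4 TCF/LEF genes and 12 of 17 nuclear cofactors were called higher, and the feedback inhibitors were not called.

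Sertoli markers also moved with the groups, in both directions: of 10 tested 7 rose and 2 fell, against 22.7% and 23.8% of all genes. SOX9, a Sertoli transcription factor, had 29.2 and 29.9 FPKM in the knockdown, against 20.6 and 21.3 FPKM in the control. AMH, a Sertoli hormone, fell to 7.20 and 7.38 FPKM in the knockdown, against 11.9 and 12.0 FPKM in the control (log2 -0.64, adjusted p = 5.52e-09, edgeR). DHH, a Sertoli ligand, fell as well, with 1.89 and 2.68 FPKM in the knockdown, against 3.88 and 3.83 FPKM in the control (log2 -0.69, adjusted p = 2.80e-04). Of 11 tested germ cell markers 5 rose (DAZL, PIWIL2, KIT, SALL4 and TEX15) and 3 fell (UCHL1, DND1 and PIWIL4), against the same shares. The markers named here were chosen after their values were seen. The part of cell composition in the changes of the TCF/LEF genes was not tested.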

How the data were processed

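Libraries of mRNA were run on an MGI sequencer, per the labels' protocols. Filtering used SOAPnuke 2.1.0, and reads were then aligned to Sscrofa 11.1 by HISAT2 2.2.1, mapped to transcripts with bowtie2 2.3.5 and counted with RSEM 1.3.3. The authors deposited expected counts, which share a read among the transcripts it fits, and FPKM, scaled by effective transcript length and library size; both were used. The deposited transcript and effective lengths, in bases, were used as well. No source used here says if strand was used in counting. On the opposite strand, TCF7L2, LEF1 and CTNNB1 overlap other annotated genes. Expected counts of CTNNB1 were fractional in every library (13698.3 and 12167.7 in the knockdown, 13768.1 and 12900.7 in the control). Those of ULK4, which overlaps its end, were fractional too (156.69 and 133.34, against 140.85 and 124.32). Reads there may thus have been shared across strands. TCF7L2, LEF1 and the other neighbours had whole counts, so no sharing shows for them.

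Groups came from the labels. Expected counts were rounded and compared with edgeR 4.0.16 (R 4.3.3): TMM scaling, filterByExpr (minimum count 10, minimum total 15), two-sided quasi-likelihood test, Benjamini-Hochberg adjustment over all tested genes. Where no other tool is named, an adjusted p is from edgeR. Standard errors and 95% intervals of fold changes are from its F statistics and degrees of freedom. Means are over 2 libraries a group, and an exact permutation test of 2 against 2 cannot give a p below 0.333. The labels speak of independent experiments but not of separate cultures or animals, so p-values cover the spread between these libraries alone, which may be technical. Alternatives were DESeq2 1.42.0, limma 3.58.1 on log2(FPKM + 1) or log2(FPKM + 0.1) (genes reaching FPKM 1 in 2 or more libraries, or all genes), RLE scaling, no count filter, a replicate block, each library left out, an effective-length offset and a length trend removed (lowess, span 0.2). Removal of length and GC trends was added after seeing the data. The edgeR fit was tested on counts simulated with no difference in fragment length between the groups, so that test does not cover this difference. Gene positions and promoter sequences are from RefSeq, Sscrofa11.1, matched by transcript accession (26265 of 26921 rows).

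The members and lists were chosen with earlier results of these data known. All 10 members were named. In each list, up to 3 called genes with the smallest p and a mean of at least 1 FPKM in the higher group were named. The falls of lists with few falls, and the TLE genes, were named after their values were seen. CSNK1E, TLE1 and TLE5 had no row under these symbols. The genes most like TCF7, the member with the smallest p, and AXIN2 were the 3 closest by Euclidean distance of log2 CPM (prior count 2).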

Additional observations from a re-analysis of the deposited data

How the results depend on the processing

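The 4 rises and 2 falls among the 10 genes kept their direction under all 14 alternatives run. TCF7, TCF7L1 and CTNNB1 were called under every one, AXIN1 under 13, LEF1 under 11 and TCF7L2 under 10, while AXIN2, NKD1, RNF43 and ZNRF3 were called under none (12 alternatives for NKD1 and RNF43, which the FPKM filter left out). With limma on log2(FPKM + 1) for all genes, 2 of the 10 were higher and 1 lower, and 18 other pathway genes were higher. Other pathway genes called lower were 5 with DESeq2 and 13 without the length and GC trends, against 8. DESeq2 called 4452 genes and limma on all genes 4438, against 7319. By direction, 34.4% of calls were higher with limma on log2(FPKM + 1), 34.5% on log2(FPKM + 0.1) and 32.0% on all genes, against 48.8%. The ZBTB16 change was not called with DESeq2 (log2 -0.36), with limma on log2(FPKM + 1) (-0.23, filtered or not) or on log2(FPKM + 0.1) (-0.36).

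Leaving out 1 library gave 3 to 4 of the 10 higher and 2 to 2 lower, 36 to 38 other pathway genes higher and 6 to 7 lower, 6040 to 6265 genes called in all and a ZBTB16 change of -0.39 to -0.34. Results reversed in sign were RNF43 without control replicate 2 (0.22, against -0.27 without control replicate 1), DKK3 without both trends (0.0110) and CTNND1 without the length trend (-0.0383) or both (-0.0806). The cause was not tested. Same-numbered libraries did not deviate together (correlation 0.00 across genes), and with the replicate block 4 of the 10 were higher and 2 lower, 41 and 9 other pathway genes were called, 7480 genes were called in all and ZBTB16 stood at -0.36. Depth limits NKD1 and RNF43, with 28 to 69 counts a library.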

Other observations

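The antisense neighbour at the LEF1 start, LOC100738196, was at 0.18 and 0.22 FPKM in the knockdown and 0.17 FPKM in each control library (adjusted p = 0.581, edgeR), and the one inside TCF7L2, LOC102165730, at 0.75 and 0.79 FPKM against 0.64 and 0.56 FPKM (adjusted p = 0.254).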
